A study of Mus musculus with 6 samples.

Results

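Measurements were taken for 5 genes of the nuclear receptor superfamily: the NR4A receptor genes Nr4a1, Nr4a2 and Nr4a3, and the retinoid X receptor genes Rxra and Rxrb. They were taken by symbol from a table of 23154 Ensembl mouse genes, and all 5 were found. The table came from RNA sequencing of 2 stable lines made from RAW264.7, a line of mouse cells that resemble macrophages, with 3 separate dishes each. The NUR77 line carried pINDUCER20b-HA-NUR77, from which doxycycline induces NUR77 with an HA tag, the protein that Nr4a1 encodes. The GFP line carried pINDUCER20b-GFP as its control. Both lines were seeded, left for 24 hours and then given 1 µg/mL doxycycline for 18 hours, and cells without doxycycline were not analysed here. No inflammatory stimulus is named in the labels. Each group is a single stable line, so differences between the lines cannot be told apart from the effect of the transgene, and p-values measure the spread between dishes.

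The NR4A receptors are immediate-early transcription factors: their genes are transcribed within minutes of a signal, largely through cAMP response elements (CREs), and their activity follows their abundance because no classical ligand is needed. They bind the NBRE, an extended nuclear receptor hexamer, as monomers, and NUR77 and NURR1 (from Nr4a2) can also bind DNA together with an RXR. The RXRs are the shared partners of the retinoic acid, vitamin D, thyroid hormone, LXR and PPAR receptors. In macrophages, RXR alpha (from Rxra) is known for its part in lipid handling, phagocytosis of dying cells and chemokine expression.

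The stretches before the transcript starts are shown because they carry the elements that the NR4A genes share and, for Rxra, an NBRE before its second start. The 250 bases before each RefSeq start (build GRCm38.p6) were searched on both strands for the CRE core TGACG, the full CRE TGACGTCA, the NBRE AAAGGTCA and the hexamer AGGTCA. The full CRE contains 2 overlapping cores and the NBRE contains the hexamer. Matches are in capitals, the sequences run 5′ to 3′ on the strand of the gene, and bases within annotated exons were left out.
Nr4a1, chr15:101266596-101266845, plus strand: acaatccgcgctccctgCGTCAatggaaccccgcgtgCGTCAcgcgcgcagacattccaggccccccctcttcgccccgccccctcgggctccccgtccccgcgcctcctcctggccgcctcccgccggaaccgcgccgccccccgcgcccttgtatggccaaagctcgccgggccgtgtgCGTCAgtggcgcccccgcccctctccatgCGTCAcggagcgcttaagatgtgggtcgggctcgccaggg
Nr4a2, chr2:57124004-57124253, minus strand: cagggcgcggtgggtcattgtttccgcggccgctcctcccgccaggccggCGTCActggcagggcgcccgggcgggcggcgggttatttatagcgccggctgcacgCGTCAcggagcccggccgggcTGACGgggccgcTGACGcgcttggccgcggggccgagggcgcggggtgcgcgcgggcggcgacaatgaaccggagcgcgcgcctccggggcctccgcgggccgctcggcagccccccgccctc
Nr4a3, chr4:48045055-48045152, plus strand: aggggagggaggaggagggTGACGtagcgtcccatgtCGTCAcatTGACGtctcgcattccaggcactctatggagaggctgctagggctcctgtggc
Rxra, second start, chr2:27709042-27709291, plus strand: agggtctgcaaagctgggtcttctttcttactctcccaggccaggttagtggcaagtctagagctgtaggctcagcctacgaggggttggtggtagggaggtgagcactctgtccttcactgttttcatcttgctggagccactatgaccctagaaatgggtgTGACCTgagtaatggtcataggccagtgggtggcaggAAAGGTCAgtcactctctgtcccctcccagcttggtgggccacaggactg
Rxrb, first start, chr17:34031683-34031811, plus strand: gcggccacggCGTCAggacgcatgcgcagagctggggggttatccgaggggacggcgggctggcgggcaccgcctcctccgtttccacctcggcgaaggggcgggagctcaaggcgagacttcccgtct

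Each of the 3 NR4A windows held 4 CRE cores. A core was found in 17.8% of the 32851 windows of this length in the RefSeq table, and 4 or more in 0.137% of them. They lay between 233 and 36 bases before the start for Nr4a1, between 200 and 107 for Nr4a2 and between 231 and 143 for Nr4a3, whose last core is in an annotated exon and is not printed. No NR4A window matched the full CRE or the NBRE, letters that 1.55% and 1.34% of all windows hold. Before the second Rxra start, the NBRE lay 50 to 43 bases upstream, and a separate hexamer, of a kind that 14.0% of windows hold, lay 87 to 82 bases upstream on the opposite strand. The first Rxra start and the second Rxrb start had no match to any of the 4 motifs, and the first Rxrb start had 1 CRE core. The Nr4a1 window and both Rxra windows lie within the annotated span of their gene, outside its exons. These matches describe letters only. Which start was used in these cells was not measured.

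Between 11199468 and 14354453 reads were counted on genes in the NUR77 libraries, and between 14350490 and 15929487 in the GFP libraries. Levels are given as normalized reads, that is reads per 10000000 reads counted on genes. Each of the 10 macrophage markers had reads. Of the 9 tested, 2 rose, Itgam by 1.18 on the log2 scale (adjusted p = 8.4e-13) and Fcgr1 by 0.23 (adjusted p = 0.0035), 6 fell, led by Mpeg1 (-4.03) and Lyz2 (-3.39), and Spi1 was at 0.09 (adjusted p = 0.21). Their sum was 24568.6 to 26290.5 normalized reads in the NUR77 line and 72729.9 to 74155.5 in the GFP line. The T cell genes Cd3e, Cd3d and Cd3g and the B cell genes Ms4a1 and Pax5 had no read, but Lck of the T cell list fell by 0.72 and Ighm of the B cell list by 0.80, at means of 71.3 and 1612 normalized reads in the NUR77 line and 118 and 2795 in the GFP line. In the other lists Pecam1 (endothelial, 3.94), S100a8 (neutrophil, 2.35) and Zbtb46 (dendritic, 1.49) rose. Each was the only tested gene of its list, at a mean of 43.2 normalized reads or less in the NUR77 line. The remaining endothelial markers summed to at most 1.39 in the NUR77 libraries, against 2.51 to 3.48 in the GFP libraries. The remaining mast and dendritic cell markers summed to 0.89 to 3.48 in the NUR77 libraries, against 4.58 to 10.45 in the GFP libraries. The remaining neutrophil markers summed to at most 0.89 in the NUR77 libraries and 0.65 to 1.88 in the GFP libraries. The 12 skeletal muscle markers summed to 116 to 321 normalized reads in the NUR77 line and 383 to 433 in the GFP line. Tnni2 was most of the sum in the GFP libraries, at 336 to 385. In NUR77 replicates 1, 2 and 3 it was at 96.4, 58.5 and 71.6. Without Tnni2 the other 11 summed to 225, 57.8 and 50.1 in the NUR77 libraries and 44.4 to 48.8 in the GFP libraries. NUR77 replicate 1 stood apart from the other NUR77 libraries in muscle transcripts, with Acta1 at 51.8 normalized reads against 8.75 and 12.5 in the other NUR77 libraries and 7.53 to 9.76 in the GFP libraries. It also had the highest sum of 6 fibroblast markers, 113 against 29.4 and 41.8 in the other NUR77 libraries and 17.6 to 22.3 in the GFP libraries. The part of these transcripts in the results was not tested, and each member is therefore also given without that library.

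Nr4a1, the gene of the induced receptor (ENSMUSG00000023034, chromosome 15, 101254269 to 101274795, plus strand), was measured at 288, 314 and 297 normalized reads in NUR77 replicates 1, 2 and 3, against 170.0, 148 and 161 in GFP replicates 1, 2 and 3. Every NUR77 library was above every GFP library. The means were 299.8 ± 13.2 in the NUR77 line and 159.9 ± 11.0 in the GFP line (SD, n = 3 each), a ratio of 1.88. The log2 fold change was 0.90 (SE 0.08, 95% interval 0.73 to 1.08, limma adjusted p = 5.5e-08). Without NUR77 replicate 1 it was 0.93. A count per gene does not separate transcripts of the construct from those of the cell's own gene, and the labels do not say from which species the NUR77 sequence came. The ratio is therefore not a measure of induction by the construct alone.

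Nr4a3, which encodes NOR1 (ENSMUSG00000028341, chromosome 4, 48045153 to 48086447, plus strand), had 34.8, 36.9 and 29.4 normalized reads in the NUR77 libraries, against 13.2, 16.3 and 12.4 in the GFP libraries. The lowest NUR77 library was well above the highest GFP library. Its mean was 33.7 ± 3.86 in the NUR77 line and 14.0 ± 2.06 in the GFP line (SD, n = 3 each), a rise of 1.21 on the log2 scale (SE 0.21, interval 0.76 to 1.67, adjusted p = 9.2e-05). Nr4a3 was the scarcest member, resting on 37 to 53 reads per NUR77 library and 19 to 26 per GFP library. Without NUR77 replicate 1 the value was 1.19.

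Nr4a2, which encodes NURR1 (ENSMUSG00000026826, chromosome 2, 57106830 to 57124003, minus strand), went the other way. It had 55.4, 71.8 and 74.0 normalized reads in the NUR77 libraries, against 101, 83.5 and 81.7 in the GFP libraries. The groups did not overlap, but the highest NUR77 library and the lowest GFP library were 7.71 normalized reads apart, less than either SD. The means were 67.0 ± 10.2 in the NUR77 line and 88.7 ± 10.7 in the GFP line (SD, n = 3 each), a log2 fold change of -0.40 (SE 0.14, interval -0.71 to -0.10, adjusted p = 0.019). Nr4a2 did not pass when NUR77 replicate 1 (-0.27, adjusted p = 0.09) or GFP replicate 1 (-0.31, adjusted p = 0.1) was left out.

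Rxra, which encodes RXR alpha (ENSMUSG00000015846, chromosome 2, 27676440 to 27762957, plus strand), changed most among the 5 genes. It was at 128, 139 and 131 normalized reads in the NUR77 libraries, against 601, 662 and 616 in the GFP libraries. The highest NUR77 library was far below the lowest GFP library, and the spread within each line was small. The mean fell to 133 ± 5.96 in the NUR77 line, against 626 ± 32.1 in the GFP line (SD, n = 3 each), which is 4.72-fold lower. The log2 fold change was -2.23 (SE 0.07, interval -2.39 to -2.07, adjusted p = 8.7e-14), and -2.20 without NUR77 replicate 1. Ranked by absolute log2 fold change, Rxra was number 507 among the 11201 tested genes, against 1183 for Nr4a3, 1780 for Nr4a1, 4511 for Nr4a2 and 6617 for Rxrb. Of the tested macrophage markers above, 6 of 9 fell in the same comparison, in which 28.3% of all tested genes fell. The part of these markers in the Rxra value was not tested.

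Rxrb, which encodes RXR beta (ENSMUSG00000039656, chromosome 17, 34031812 to 34038399, plus strand), had 722, 839 and 905 normalized reads in the NUR77 libraries, against 679, 699 and 698 in the GFP libraries. NUR77 replicate 1 was only slightly above the GFP libraries, and the NUR77 line was the more variable. The mean was 822 ± 92.7 in the NUR77 line and 692 ± 11.1 in the GFP line (SD, n = 3 each), a ratio of 1.19. The rise was 0.24 on the log2 scale (SE 0.07, interval 0.09 to 0.39, adjusted p = 0.0067). Without NUR77 replicate 1 it was 0.33, and under TMM scaling, another way to equalise the libraries, it was 0.17 (adjusted p = 0.042). Rxrg, the remaining RXR gene, had no read in any of the 6 libraries, so at most 0.787 normalized reads in the NUR77 line and 0.658 in the GFP line could have been missed at a limit of 3 reads over a group.

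All 5 members passed the threshold of an adjusted p of 0.05, in a comparison in which 66.7% of tested genes passed it. Likewise, none of the 5 had overlapping groups, as was true of 70.6% of tested genes. Being called is therefore close to the background here, and the size and direction of each change carry the description. Of the 5, 3 rose (Nr4a1, Nr4a3 and Rxrb) and 2 fell (Nr4a2 and Rxra), while 38.4% of tested genes rose and 28.3% fell. That balance depends on the scaling: 4305 genes rose and 3170 fell as given, against 3606 and 3838 under TMM scaling and 3716 and 3713 under upper-quartile scaling. The directions of the 5 members were the same under each.

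**Figure D1:**
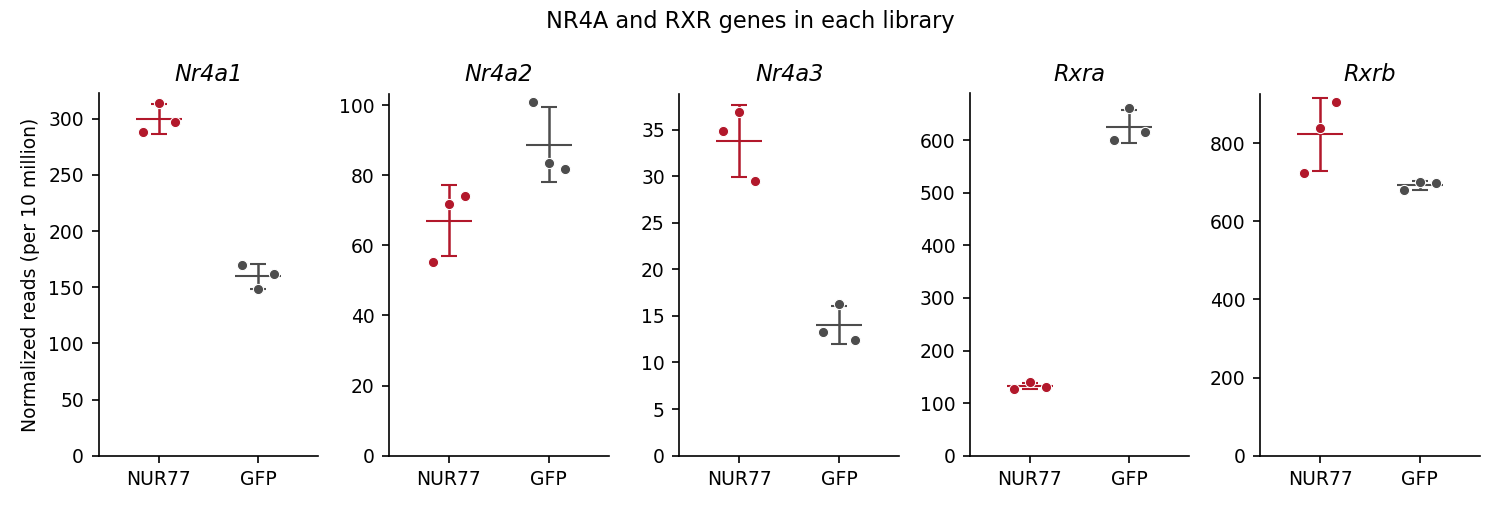
Normalized reads (reads per 10000000 counted on genes, linear axis from 0) of the 5 genes in the 3 NUR77 and the 3 GFP libraries; points are libraries, horizontal marks are means and error bars are SD. The lines do not overlap for any gene, with Rxra at 128 to 139 in the NUR77 line against 601 to 662 in the GFP line, and the narrowest gap, 7.71 normalized reads, for Nr4a2.

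Levels of different genes were compared per kilobase of merged exon, since longer transcripts yield more reads. In the NUR77 line the order of the mean levels was Rxrb (207 ± 23.3 normalized reads per kilobase), Nr4a1 (85.4 ± 3.75), Rxra (24.3 ± 1.09), Nr4a2 (16.5 ± 2.51) and Nr4a3 (5.63 ± 0.645). In the GFP line it was Rxrb (174 ± 2.80), Rxra (114.7 ± 5.88), Nr4a1 (45.6 ± 3.14), Nr4a2 (21.9 ± 2.63) and Nr4a3 (2.34 ± 0.344; SD, n = 3 each). Nr4a1 and Rxra thus changed places between the lines, though the Nr4a1 level in the NUR77 line may include construct transcripts. In neither line did the libraries of neighbours in this order overlap, and the order was the same with the length of the longest annotated transcript. Among all tested genes, the level of Nr4a1 stood at percentile 48.6 in the NUR77 line and 31.9 in the GFP line, and that of Rxra at percentile 18.6 in the NUR77 line and 60.0 in the GFP line.

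The make-up of both families differed between the lines. Nr4a1 held 80.9%, 79.0% and 78.5% of the summed NR4A level per kilobase in the NUR77 libraries, against 64.1%, 64.4% and 67.4% in the GFP libraries. Nr4a2 held 13.4% to 16.9% in the NUR77 line against 29.5% to 32.9% in the GFP line. Rxra held 11.4%, 10.8% and 9.54% of the summed RXR level in the NUR77 libraries, against 39.1%, 40.8% and 39.1% in the GFP libraries, so that Rxrb made up most of the RXR transcript in both lines and nearly all of it in the NUR77 line. The summed RXR level was 205 to 252 normalized reads per kilobase in the NUR77 line and 281 to 297 in the GFP line. The summed NR4A level was 102 to 113 in the NUR77 line and 65.5 to 75.6 in the GFP line. The NR4A sum over the RXR sum was 0.467 ± 0.0353 in the NUR77 line and 0.242 ± 0.0247 in the GFP line (SD, n = 3 each). In the NUR77 line the Nr4a1 level may include construct transcripts, which need not have the exon length used. The Nr4a1 share, the NR4A sum and this ratio are therefore not counts of the cell's own transcripts. These shares are given without a test, and the amounts of protein were not measured.

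**Figure D2:**
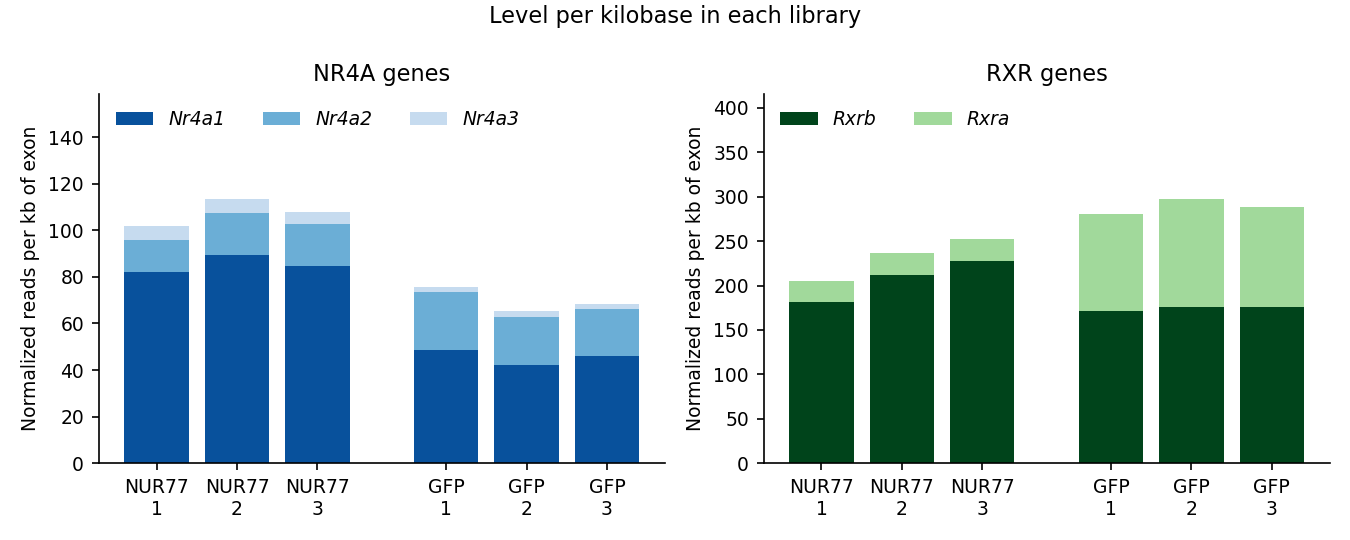
Normalized reads per kilobase of merged exon (linear axes from 0), stacked by gene, for the NR4A genes (left) and the RXR genes (right) in each NUR77 and GFP library. Rxra makes up 9.54% to 11.4% of the RXR bar in the NUR77 libraries and 39.1% to 40.8% in the GFP libraries, while Nr4a1 is the largest part of every NR4A bar.

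The receptors that pair with RXR were examined next, from a list of 14 genes, because Rxra and Rxrb serve them all. Of the 7 tested partners, 5 rose, 1 fell and 1 did not pass, with a median log2 fold change of 0.55 against 0.06 over all tested genes. The share called was 85.7%, against 66.7% over all tested genes. Rara, the retinoic acid receptor alpha gene, had 562 ± 77.5 normalized reads in the NUR77 line and 159 ± 1.71 in the GFP line (log2 fold change 1.81, SE 0.09, adjusted p = 2.2e-11). Vdr, the vitamin D receptor gene, had 48.7 ± 4.36 in the NUR77 line and 16.1 ± 1.97 in the GFP line (1.54, adjusted p = 1.9e-06). Thra, the thyroid hormone receptor alpha gene, rose by 1.17 (adjusted p = 1.1e-09), Rarg, another retinoic acid receptor gene, by 0.55 (adjusted p = 1.8e-05), and Ppard, the PPAR delta gene, by 0.39 (adjusted p = 0.0001). Nr1h3, the LXR alpha gene, was the member that fell, with 16.1 ± 4.41 normalized reads in the NUR77 line and 58.2 ± 5.59 in the GFP line (-1.83, adjusted p = 9.5e-07). LXR beta, from Nr1h2, was at -0.19 (interval -0.36 to -0.02, adjusted p = 0.051), and passed as lower under TMM scaling (-0.26, adjusted p = 0.0081). Without NUR77 replicate 1 it was at -0.08 (adjusted p = 0.29). Without NUR77 replicate 2 or 3 it passed as lower (-0.25 and -0.24, adjusted p = 0.025 for each). The other 7 partners were too low to be tested, at a mean of 1.91 normalized reads or less, among them Pparg with 4 reads in the NUR77 line and 12 in the GFP line. Ppara, Nr1i2 and Nr1h4 had no read.

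**Figure D3:**
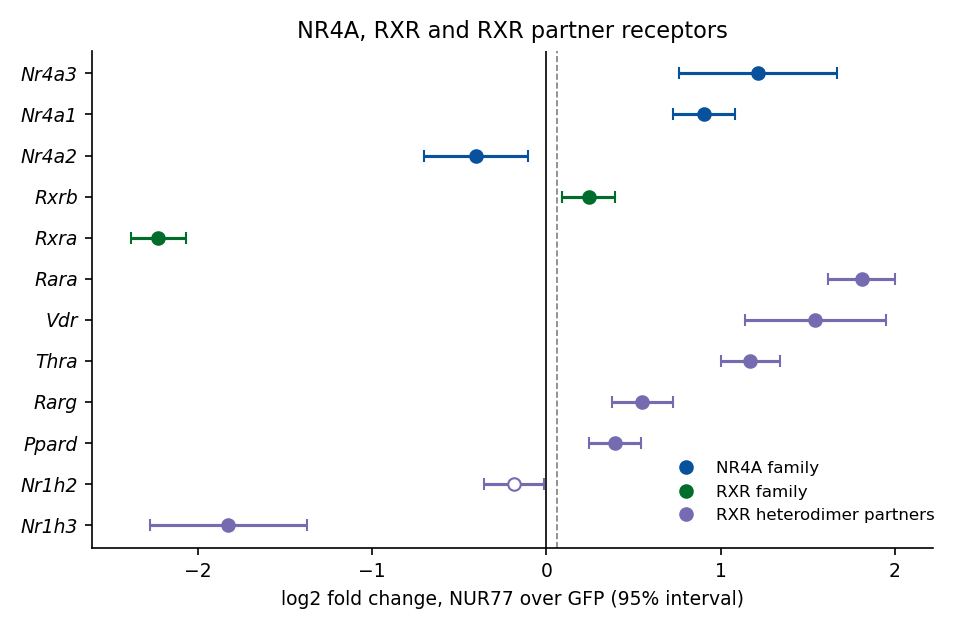
Log2 fold change of NUR77 over GFP with its 95% interval for the tested NR4A, RXR and RXR partner genes; filled points passed an adjusted p of 0.05, the open point did not, and the dashed line is the median of all tested genes. Rxra (-2.23) and Nr1h3 (-1.83) lie far to the left, and Rara (1.81) and Vdr (1.54) far to the right.

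The tested genes that make, carry or clear retinoids, the compounds that RXR and its retinoic acid receptor partners can bind, moved one way. All 6 tested members of a list of 15 fell, with a median log2 fold change of -0.88, where 28.3% of all tested genes fell. Dhrs9, a retinol dehydrogenase gene, had 738 ± 45.6 normalized reads in the NUR77 line and 2675 ± 62.0 in the GFP line (-1.86, SE 0.06, adjusted p = 2.1e-14). Dhrs3, whose enzyme reduces retinal to retinol, had 870.2 ± 40.8 in the NUR77 line and 2219 ± 187 in the GFP line (-1.35, adjusted p = 6.0e-12). Fabp5, which encodes a carrier of fatty acids and retinoic acid, fell by 1.30 (adjusted p = 6.5e-10). Retsat, the retinol saturase gene, was at -0.47 (adjusted p = 1.3e-06). Rdh11 and Rdh10, genes of retinal and retinol metabolism, were at -0.27 (adjusted p = 0.0046) and -0.31 (adjusted p = 0.027). Rdh10 did not pass when NUR77 replicate 2 (adjusted p = 0.12) or GFP replicate 3 (adjusted p = 0.11) was left out. The 9 untested members averaged 4.87 normalized reads or less. Without the filter on low values 2 of them counted as higher. Aldh1a3, a retinal dehydrogenase gene chosen after its values were seen, had 31 reads in the NUR77 line and 8 in the GFP line.

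Genes that RXR heterodimers are known to control in macrophages rose and fell. Of 17 tested members of a list of 19, 4 rose, 8 fell and 5 did not pass, with a median log2 fold change of -0.39; under TMM scaling 4 rose and 10 fell. The share called, 70.6%, was near the 66.7% over all tested genes. The fatty acid binding protein gene Fabp4 had 96.3 ± 16.5 normalized reads in the NUR77 line and 14.7 ± 0.303 in the GFP line (2.62, adjusted p = 8.3e-10). Cd36, a fatty acid and lipoprotein receptor gene, had 12940 ± 1729 in the NUR77 line and 3229 ± 96.0 in the GFP line (1.99, adjusted p = 1.0e-10). Abcg1, a sterol exporter gene regulated by LXR with RXR, had 399 ± 14.7 in the NUR77 line and 1475 ± 109 in the GFP line (-1.88, adjusted p = 7.8e-14). Tgm2, the transglutaminase gene (-1.50, adjusted p = 6.6e-09), Angptl4, a PPAR target (-1.04, adjusted p = 4.0e-08), and Pltp, the phospholipid transfer protein gene (-0.85, adjusted p = 1.6e-09), fell as well. The others that rose, named outside the rule, were Lpl (0.48, adjusted p = 6.2e-06) and Abca1 (0.27, adjusted p = 0.0059). Srebf1, the SREBP1 gene, was at -0.05 (adjusted p = 0.6), the desaturase gene Scd2 at -0.06 (adjusted p = 0.24) and the chemokine gene Ccl6 at 0.39 (adjusted p = 0.17). Scd2 passed as lower under TMM scaling (-0.14, adjusted p = 0.017).

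Genes that NR4A receptors are known to regulate in muscle, liver, endocrine, neural or immune cells were examined for the same reason. Of 25 symbols 22 were matched and 12 were tested, of which 6 rose, 4 fell and 2 did not pass (median log2 fold change 0.41). The share called was 83.3%, against 66.7% over all tested genes. Eno3, the muscle enolase gene and a NUR77 target in skeletal muscle, had 7579 ± 345 normalized reads in the NUR77 line and 265 ± 17.0 in the GFP line (4.83, adjusted p = 7.1e-19). Ccr7, a chemokine receptor gene tied to Nr4a3 in dendritic cells, had 223 ± 80.7 in the NUR77 line and no read in the GFP line, at least 340-fold higher at a limit of 3 reads over the group. Spp1, the osteopontin gene, had 46269 ± 9861 in the NUR77 line and 17984 ± 1523 in the GFP line (1.35, adjusted p = 0.0011). Ikbke, which encodes the kinase IKK epsilon and is a NUR77 target in macrophages, had 953 ± 44.2 in the NUR77 line and 383 ± 7.90 in the GFP line (1.31, adjusted p = 4.3e-12). The cyclin gene Ccnd2 rose by 0.87 (adjusted p = 1.7e-10), and Slc2a4, the GLUT4 gene, was at -0.97 (adjusted p = 0.007) on 33 reads in the NUR77 line and 78 in the GFP line. The others that fell, named outside the rule, were the cell cycle gene Skp2 (-0.64), the cell death gene Bcl2l11 (-0.54) and Bpgm of red cell glycolysis (-0.31). Star, of steroid synthesis, was at -0.05 (adjusted p = 0.86) and Ccnd1 at -0.06 (adjusted p = 0.31; -0.13 and adjusted p = 0.032 under TMM scaling). Muscle transcripts stood out in NUR77 replicate 1, as given above, and Eno3 was at 4.85 without it.

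Changes among the tested coregulators that nuclear receptors recruit were small. Of 16 tested genes of a list of 17, 6 rose, 1 fell and 9 did not pass (median log2 fold change 0.12), while 6 rose and 6 fell under TMM scaling. The share called was 43.8%, against 66.7% over all tested genes. Nrip1, which encodes the corepressor RIP140, changed most among the tested genes. It had 578 ± 36.6 normalized reads in the NUR77 line and 306 ± 36.7 in the GFP line (0.92, adjusted p = 4.7e-08). The corepressor gene Ncor1 (0.28, adjusted p = 0.0002), the demethylase gene Kdm1a (0.33, adjusted p = 2.1e-05), Tbl1x of the NCoR complex (0.31, adjusted p = 4.8e-05) and the Mediator gene Med1 (0.28, adjusted p = 0.00019) also rose. The gene that fell, Rcor1, encodes CoREST (-0.21, adjusted p = 0.00079) and is named outside the rule. Tbl1xr1, Ncoa3 and Crebbp were at -0.07, -0.08 and 0.12 (adjusted p = 0.28, 0.2 and 0.17), and the first and second of these passed as lower under TMM scaling (-0.14 and -0.15, adjusted p = 0.03 and 0.019). Ppargc1a, the PGC-1 alpha gene, was too low for the test and was chosen after its values were seen. It had no read in the NUR77 line and 17.6 ± 0.686 normalized reads in the GFP line, at least 22.3-fold lower at a limit of 3 reads over the group.

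The transcription factors and coactivators that act on NR4A promoters, through CRE, MEF2 or serum response elements, also changed little. Of 12 tested genes 5 rose, 3 fell and 4 did not pass (median log2 fold change 0.10), and under TMM scaling 3 rose and 4 fell. The share called, 66.7%, equals that over all tested genes. Crtc2, a CREB coactivator gene, had 1045 ± 109 normalized reads in the NUR77 line and 658 ± 13.0 in the GFP line (0.66, adjusted p = 2.4e-07). Elk1, a partner of serum response factor, had 447 ± 11.4 in the NUR77 line and 290.4 ± 17.7 in the GFP line (0.62, adjusted p = 5.8e-07). Mef2a fell by 0.31 (adjusted p = 6.0e-05) and Mef2c rose by 0.23 (adjusted p = 0.00082). Elk4 was at -0.26 (adjusted p = 0.00054), and Crtc1 at -0.24 (adjusted p = 0.034), a call that was lost when any library but NUR77 replicate 3 was left out (adjusted p = 0.065 to 0.13). Crem, Atf1 and Mef2d were at 0.07, 0.05 and -0.10 (adjusted p = 0.5, 0.49 and 0.11), and Mef2d passed as lower under TMM scaling (-0.17, adjusted p = 0.0093). Levels of these transcripts do not measure the activity of the CREB pathway, which rests on phosphorylation.

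**Figure D4:**
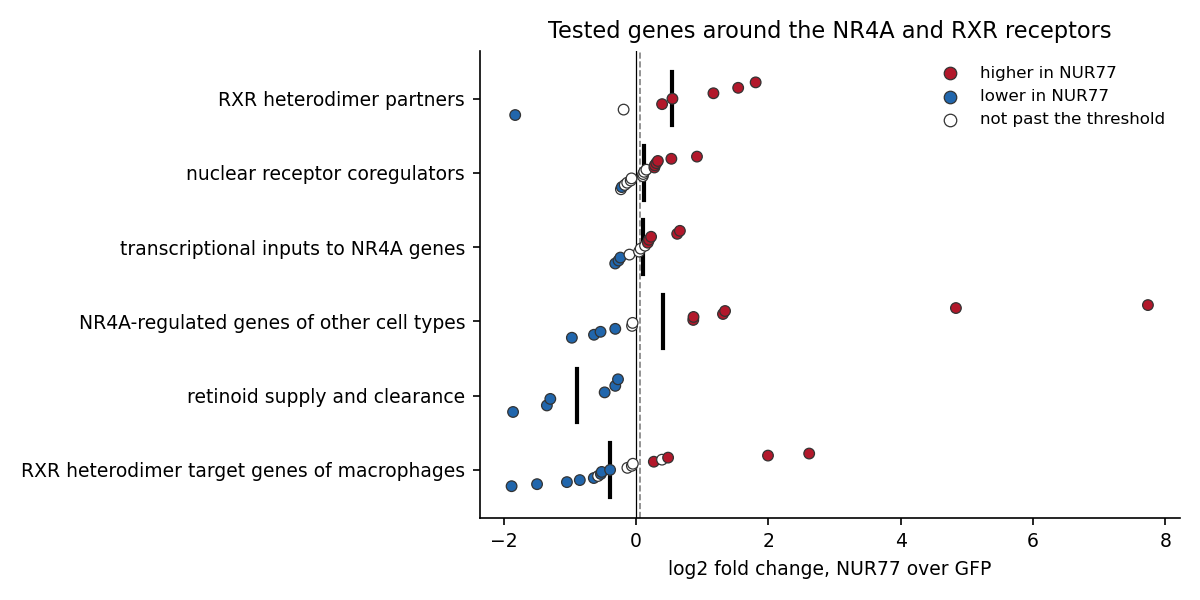
Log2 fold change of NUR77 over GFP for each tested gene of 6 lists around the NR4A and RXR receptors; red and blue points passed an adjusted p of 0.05 as higher or lower in NUR77, open points did not, black bars are list medians and the dashed line is the median of all tested genes. All 6 tested retinoid genes lie left of 0, and most of the tested coregulators and inputs to NR4A genes lie close to 0.

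No annotated gene overlapped a member on either strand. Nr4a1 and its neighbour Grasp, a scaffold protein gene 21.5 kilobases away, both rose (Grasp by 1.07, adjusted p = 1.8e-05), as did Acvr1b, an activin receptor gene (0.41, adjusted p = 0.00017). On the other side, Atg101, an autophagy gene 9.48 kilobases away, was at 0.09 (adjusted p = 0.37), and Eif4b, 799 kilobases away, rose by 0.23 (adjusted p = 0.00028). Both tested neighbours of Rxra at higher coordinates fell: Olfm1, an olfactomedin gene 430 kilobases away, by 0.99 (adjusted p = 3.5e-07), and Ppp1r26, 684 kilobases away, by 0.81 (adjusted p = 0.00025). At lower coordinates Wdr5 was at -0.01 (adjusted p = 0.9) and Gm13421 at 0.57 (adjusted p = 0.083).

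Rxrb starts 0.13 kilobases from Slc39a7, a zinc transporter gene on the opposite strand. Slc39a7 was at -0.08 (adjusted p = 0.66), and Ring1, a Polycomb gene 7.13 kilobases away, at -0.07 (adjusted p = 0.49). Col11a2, a collagen gene 1.04 kilobases away on the other side, was at -0.60 (adjusted p = 0.11), while H2-Oa, a class II antigen presentation gene 53.9 kilobases away, rose by 2.06 (adjusted p = 1.5e-06). Around Nr4a2, which fell, Gpd2, the mitochondrial glycerol 3-phosphate dehydrogenase gene 114 kilobases away, rose by 0.51 (adjusted p = 2.4e-07) and Cytip was at 0.16 (adjusted p = 0.079). Around Nr4a3, Stx17 was at -0.19 (adjusted p = 0.024), Erp44 at 0.15 (adjusted p = 0.02), Alg2 at -0.15 (adjusted p = 0.081) and Sec61b at -0.18 (adjusted p = 0.18), all far smaller changes than that of Nr4a3. Erp44 did not pass under TMM scaling (0.07, adjusted p = 0.24) or without GFP replicate 1 or 3 (adjusted p = 0.087 and 0.056), and Alg2 passed as lower under TMM scaling (-0.23, adjusted p = 0.012). Stx17 did not pass when NUR77 replicate 1 or 3 or GFP replicate 1 or 3 was left out (adjusted p = 0.051 to 0.1).

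**Figure D5:**
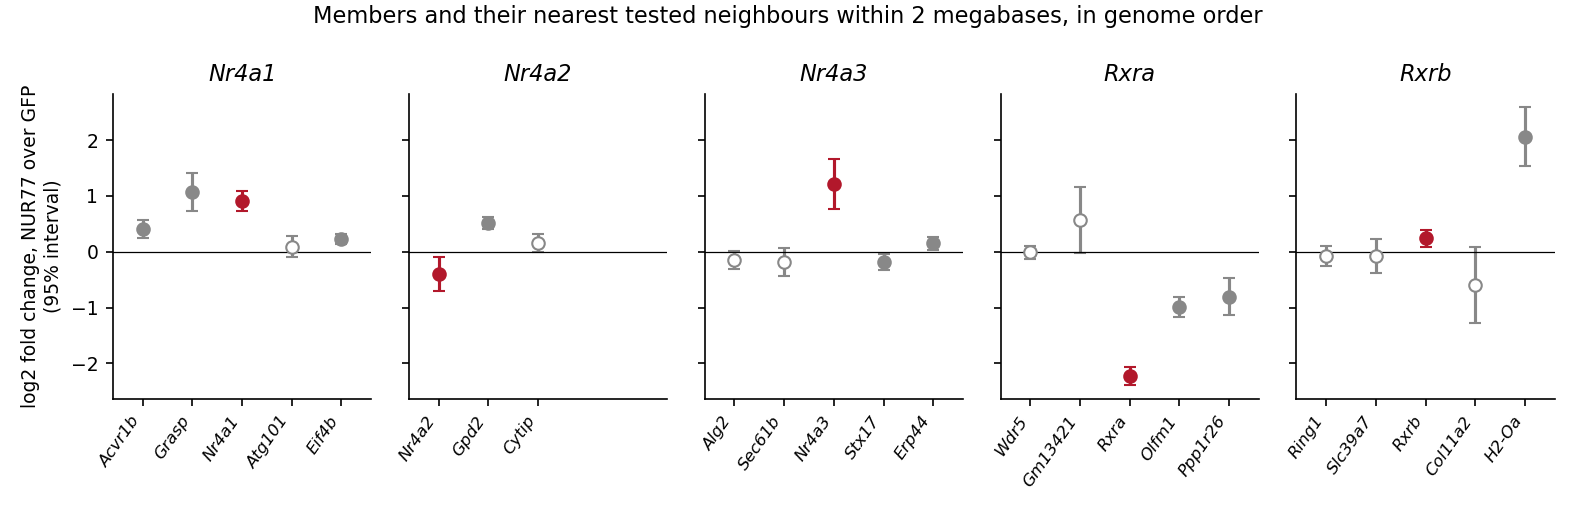
Log2 fold change of NUR77 over GFP with its 95% interval for each member (red) and up to 2 tested neighbours on either side within 2 megabases (grey), in genome order and not to distance; filled points passed an adjusted p of 0.05. Rxra (-2.23) lies below Olfm1 (-0.99) and Ppp1r26 (-0.81), and the neighbours of Nr4a3 stay between -0.19 and 0.15.

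Genes with the most similar pattern over the 6 libraries were found by the root mean square difference of log2 values, each gene centred on its own mean. Nearest to Nr4a1 were Zfp821 (difference 0.035), Fuz (0.042) and Dnajc22 (0.047), against a median difference of 0.46 over the tested genes. Nearest to Nr4a2 were Gtpbp6 (0.062), Tbcc (0.069) and Zbtb42 (0.070), against a median of 0.33. For Nr4a3 they were Card6 (0.089), Smad1 (0.092) and Tcaf1 (0.099), with a median of 0.62. For Rxra they were Chst3, a chondroitin sulfotransferase gene (0.066), Ctsb, the cathepsin B gene (0.075), and Plscr4 (0.076), with a median of 1.15. Ctsb had 12803, 12850 and 12936 normalized reads in the NUR77 libraries, against 64988, 64383 and 63933 in the GFP libraries, so that it fell by 2.32 on the log2 scale, close to Rxra. For Rxrb they were Dhx34 (0.031), Mrps24 (0.033) and Osgepl1 (0.035), with a median of 0.22. With 2 groups and most genes changed, this likeness mainly ranks genes by the size of their change.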

How the data were processed

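Poly(A) RNA of 3 NUR77 and 3 GFP dishes, grouped by title, was sequenced from strand-specific libraries. The authors deposited log2 values for 23154 genes, 1 column per library; TopHat2 2.1, HTSeq, DESeq2 and the build mm10 are listed per the submitters' processing notes, without roles, and the labels name no annotation release. Undone, each value plus 1 being the logged number, every library summed to 10000000 and 100% of values were whole multiples of 1 read (tolerance 0.1 read), which gave the depths. The intervals rest on the spread between dishes, and the limits of 3 reads cover counting error only.

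Genes averaging at least 10 normalized reads were fitted by limma 3.58.1 in R 4.3.3 on log2(value + 1), with trend and robust moderation, without covariates. This gave 11201 tests, adjusted by Benjamini-Hochberg (threshold 0.05, two-sided). The fold changes are NUR77 over GFP on that scale, which understates changes of low genes. The fit was tested on simulated data with 200 changed genes, far fewer than were called here. Identifiers were matched to GENCODE M21 (GRCm38, mm10), which named 22872. Levels per kilobase used merged exon length, an alternative the longest transcript.

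The members and lists were chosen with earlier results of these data known. The rule for named genes took from each list up to 6 called genes by size of change and up to 3 not called by largest p, plus neighbours and most similar genes. Alternatives were pseudocounts of 0.5 and 5, no filter or a mean of 50, TMM, upper-quartile and median-of-ratios scaling, no trend, limma-voom, a replicate block and each library left out. The values of a few genes that the rule takes are not reported here, though counts over the lists include them.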

Additional observations from a re-analysis of the deposited data

How the results depend on the processing

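The count of genes called stayed within 1.5 times of 7475 under every alternative, from 6680 with a filter at a mean of 50 to 8429 without a filter, and from 6749 to 7257 with 1 library left out. Nr4a1, Nr4a3, Rxra and Rxrb kept their direction and their call under every alternative that tested them; Nr4a3 was too low for the filter at a mean of 50. With 1 library left out, log2 fold changes ran from 0.85 to 0.95 for Nr4a1, 1.14 to 1.32 for Nr4a3, -2.26 to -2.19 for Rxra, 0.17 to 0.33 for Rxrb and -0.48 to -0.27 for Nr4a2. The call of Nr4a2 was lost without NUR77 replicate 1 and without GFP replicate 1, and the cause was not tested. Under the alternative scalings Rxrb was at 0.17 to 0.18 (adjusted p = 0.025 to 0.042). Of 1320 values of other named genes under an alternative, 34 gained and 29 lost the call and 0 reversed. The labels do not say whether the replicate numbers pair the dishes, and 3 libraries per line cannot decide it. Deviations of same-numbered libraries correlated at 0.00, 0.11 and 0.04, and those of differently numbered libraries at -0.11 to 0.07. With the replicate number as a block 7585 genes were called, and Nr4a2 stayed at -0.40 (adjusted p = 0.025). Depth limits Nr4a3 most, at 64 reads over the GFP line.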
